A study of Mus musculus with 12 samples.

Results

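The 3 D-type cyclins Ccnd1, Ccnd2 and Ccnd3, their kinases Cdk4 and Cdk6, the inhibitors Cdkn1a, Cdkn1b, Cdkn1c and Cdkn2c and the substrate Rb1 were followed in sorted mouse myeloid progenitors. They are the rows of the deposited count table with these symbols, 10 of its 33924 genes, and 9 of the 10 had enough counts for the fit across 10604 genes; Cdkn1c did not. The genes were chosen by their roles and by their levels in these same libraries. Their levels and differences are therefore given as a description, without a p-value of any single member. Where members past a test threshold are counted, nothing is read from the count.

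D-type cyclins are made in response to growth factor signals and bind CDK4 or CDK6. The active complexes phosphorylate the retinoblastoma protein, encoded by Rb1, which then releases E2F transcription factors and lets a cell enter S phase. Cdkn2c encodes the INK4 inhibitor p18, which binds CDK4 and CDK6 themselves, while Cdkn1a (p21), Cdkn1b (p27) and Cdkn1c (p57) belong to the Cip/Kip family, which binds complexes of cyclins and kinases. In blood formation CDK6, p18, p27 and p57 are known for their part in the proliferation and quiescence of stem and progenitor cells.

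Bone marrow came from femurs and tibias, and live Lineage- Sca1- c-Kit+ cells were sorted, a gate that collects progenitors of the granulocyte, monocyte, erythroid and megakaryocyte lines. All mice carried Mx+, a name in use for the transgene in which the interferon-inducible Mx1 promoter drives Cre. The groups carried either intact Wt1 (Mx+ Wt1+/+, called control) or 1 floxed allele (Mx+ Wt1fl/+, called het), and the labels name no inducing agent. Wt1 encodes a zinc finger transcription factor. There were 3 libraries of each genotype among mice labelled old chronic and 3 of each among mice labelled young acute, 12 in all. The labels explain neither chronic nor acute, so age and that condition cannot be told apart, and ages in weeks or months are not given. They do not say whether replicates were separate animals, so tests measure the spread between these samples, which may be technical.

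Total counts ran from 645460 in young control 2 to 9645502 in old control 1. Wt1 had 8, 4 and 6 counts in the young controls, 7, 4 and 23 in the young hets, 1, 4 and 2 in old controls and 3, 2 and 4 in old hets, too few to check the genotypes. A 3' tag also need not lie in the deleted part of the gene. Young control 3 lay apart from the other libraries on the first principal component. The Y-linked transcript Ddx3y had 0 counts in 5 libraries, namely young control 3, the 3 young hets and old het 1, so sex was not balanced over the groups. Markers of neutrophil precursors were the highest of 9 marker lists, with a summed level of 4428 to 14871 CPM per library (counts per 1000000 counts of a library, its total scaled by the TMM method). The 7 stromal and endothelial markers summed to at most 46.9 CPM in a library. Cdh5 and Lepr were at 0 in every library, while others of that list were detected in some libraries of each group.

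Ccnd2, Cdk6 and Cdk4 were the abundant members, in that order, and each of the other 7 stood far below them. Averaged over the 12 libraries, Ccnd2 had 723 CPM, Cdk6 had 440.2 and Cdk4 had 257. Ccnd1 followed with 46.5 CPM, and then came Cdkn2c with 24.2, Rb1 with 23.9, Cdkn1b with 22.7, Ccnd3 with 15.0, Cdkn1a with 4.38 and Cdkn1c with 0.959. Tags come from transcript ends, so no correction for length was made. Because use of molecular identifiers, strand setting and annotation are not stated, levels of different genes compare only roughly. The top of the order was firm in some places and not in others: Ccnd2 exceeded Cdk6 in 10 of 12 libraries, Cdk6 exceeded Cdk4 in 9, and Cdk4 exceeded Ccnd1 in all 12. Cdkn2c and Rb1 each led the other in 6 libraries, as did Rb1 and Cdkn1b, so these 3 could not be ranked.

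Ccnd1 encodes cyclin D1, which is known for wide use outside the blood system. In the young controls, in order of replicate, its level was 11.4, 13.6 and 0 CPM, and young hets held 22.2, 13.51 and 12.4 CPM. In old controls it was 119, 55.2 and 112 CPM, and in old hets 30.7, 68.1 and 100.5 CPM. Every old library was above every young library, while het and control overlapped at both ages. Behind these levels were 15, 8 and 0 counts in the young controls, 66, 90 and 73 in the young hets, 1294, 234 and 253 in the old controls and 38, 170 and 153 in the old hets. The 0 in young control 3 allows up to 2.29 CPM (3 counts), which covers counting error only. Exons of LTO1 lie on the opposite strand of Ccnd1, and the count table has no row of that name. No strand setting of the counting is stated, so whether reads of LTO1 were kept apart from Ccnd1 is not known.

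Group means of Ccnd1 were 8.33 ± 7.30 CPM (SD, n = 3) in young controls, 16.04 ± 5.34 in young hets, 95.2 ± 34.8 in old controls and 66.4 ± 34.9 in old hets. Old controls were thus 11.4-fold above young controls by the means, with a log2 difference of 3.62 (SE 0.73) in edgeR's quasi-likelihood fit, and old hets were 4.14-fold above young hets, with a log2 difference of 2.06 (SE 0.63). Without young control 3, the library at 0, the first of these log2 differences was 2.89 (SE 0.59). Het against control gave 1.04 (SE 0.71) in the young and -0.51 (SE 0.61) in the old. These contrasts share libraries: young controls enter both the first age contrast and the young genotype contrast.

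Ccnd2 encodes cyclin D2, the D cyclin with most of the counts here. Young controls held 456, 462 and 521 CPM and young hets 663, 343 and 345 CPM. It was 1134, 939 and 786 CPM in old controls and 1142, 921 and 966 CPM in old hets. As for Ccnd1, the lowest old library lay above the highest young library, 786 against 663 CPM. Group means were 479.7 ± 36.1 CPM (SD, n = 3) in young controls, 450.3 ± 184 in young hets, 953 ± 174 in old controls and 1009.6 ± 117 in old hets. The age difference was close to 1 on the log2 scale in both genotypes, 0.99 (SE 0.32) in controls and 1.17 (SE 0.32) in hets. Het against control was -0.09 (SE 0.32) in the young and 0.08 (SE 0.32) in the old.

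Ccnd3 encodes cyclin D3, which is known for its part in lymphoid and erythroid development. It had 15.9, 8.499 and 15.3 CPM in young controls, 23.9, 6.91 and 10.2 in young hets, 4.49, 16.3 and 16.8 in old controls, and 15.4, 23.2 and 23.0 in old hets. The 4 groups overlapped throughout. Its log2 difference was 0.01 (SE 0.71) for het against control in the young, 0.73 (SE 0.69) in the old, -0.12 (SE 0.70) for old against young controls and 0.60 (SE 0.68) for old against young hets. The opposite strand of Ccnd3 holds exons of Bysl, which had 1628 counts over all libraries against 491 for Ccnd3. Because no strand setting of the counting is stated, it is not known whether reads of the pair were kept apart.

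Of the counts of the 3 D cyclins, Ccnd2 held the most in every group: 95.6% ± 1.42 (SD, n = 3) in young controls, 93.9% ± 0.446 in young hets, 89.7% ± 3.53 in old controls and 91.9% ± 3.82 in old hets. The summed level of the 3 genes was 501 ± 30.5 CPM in young controls, 480.0 ± 198 in young hets, 1061 ± 176 in old controls and 1097 ± 88.0 in old hets. No library therefore changed its leading D cyclin; what differed was the minor share.

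The Ccnd1 share was 2.36%, 2.81% and 0% in the young controls and 3.13%, 3.71% and 3.38% in the young hets. It was 9.43%, 5.46% and 12.2% in old controls and 2.59%, 6.73% and 9.22% in old hets. Old controls were all above the young libraries, but old het 1, at 2.59% with a 95% Wilson interval from 1.89% to 3.53% on 1469 counts, lay among them. In young control 3 none of 702 D cyclin counts was Ccnd1, which allows a share up to 0.544% by the same interval. Such intervals cover counting error only.

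The second D cyclin was Ccnd3 in 3 of the 6 young libraries, young controls 1 and 3 and young het 1, and Ccnd1 in all 6 old libraries. Within young controls 1 and 2, young hets 1 and 3 and old het 1 the counting intervals of both shares overlapped. The order of Ccnd1 and Ccnd3 was thus not firm in these libraries. Ccnd3 held 2.64% ± 0.796 (SD, n = 3) of D cyclin counts in young controls, 2.68% ± 0.739 in young hets, 1.27% ± 0.797 in old controls and 1.90% ± 0.533 in old hets. For each count of Ccnd1 there were 34 to 40 counts of Ccnd2 in the young controls that had any, 25.4 to 29.9 in young hets, 7.03 to 17.0 in old controls and 9.61 to 37.2 in old hets. A share within a library does not depend on how libraries are scaled.

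**Figure D1:**
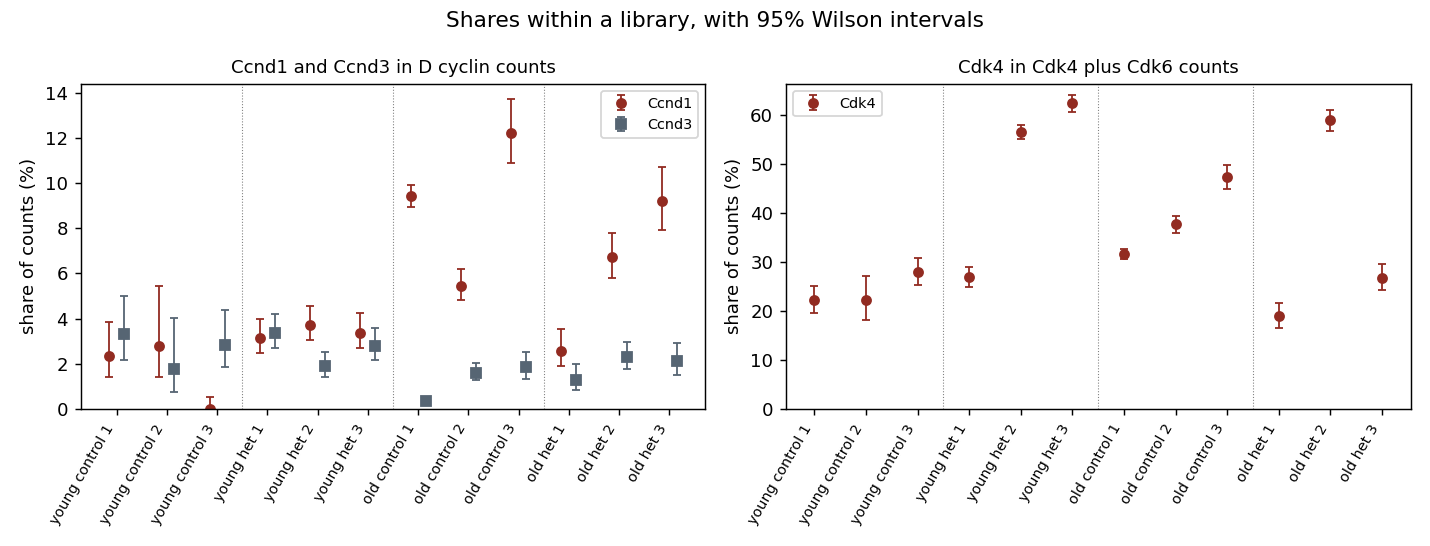
Shares in percent, with 95% Wilson intervals as bars, of Ccnd1 and Ccnd3 among each library's D cyclin counts (left) and of Cdk4 among its Cdk4 plus Cdk6 counts (right), libraries on the x axis by group. Ccnd1 reaches 12.2% in old control 3, and Cdk4 exceeds Cdk6 in 3 libraries.

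RefSeq windows of the 250 bases before the start, on GRCm38.p6, were at hand for 6 of the 10 genes, Ccnd3, Cdk4, Cdk6, Cdkn1a, Cdkn1b and Cdkn2c, and 3 of them are shown because they held a searched motif. The E-box CACGTG, the word bound by MYC with MAX, was found in those of Cdk4 and Cdk6; its reverse complement is the same word, so both strands read alike. Capitals mark the E-boxes in Cdk4 (chr10:127063285-127063534, plus strand) and Cdk6 (chr5:3343643-3343892, plus strand), and in Cdkn1a (chr17:29090729-29090978, plus strand) a p53 response element.
Cdk4: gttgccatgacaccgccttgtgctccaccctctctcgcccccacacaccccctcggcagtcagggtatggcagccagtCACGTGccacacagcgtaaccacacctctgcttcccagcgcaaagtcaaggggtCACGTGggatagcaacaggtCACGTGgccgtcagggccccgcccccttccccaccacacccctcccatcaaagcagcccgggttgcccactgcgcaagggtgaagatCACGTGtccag
Cdk6: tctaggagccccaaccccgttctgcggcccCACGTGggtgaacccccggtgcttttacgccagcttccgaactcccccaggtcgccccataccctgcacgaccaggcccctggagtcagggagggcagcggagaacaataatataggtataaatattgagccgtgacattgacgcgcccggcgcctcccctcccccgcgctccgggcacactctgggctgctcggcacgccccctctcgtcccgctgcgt
Cdkn1a: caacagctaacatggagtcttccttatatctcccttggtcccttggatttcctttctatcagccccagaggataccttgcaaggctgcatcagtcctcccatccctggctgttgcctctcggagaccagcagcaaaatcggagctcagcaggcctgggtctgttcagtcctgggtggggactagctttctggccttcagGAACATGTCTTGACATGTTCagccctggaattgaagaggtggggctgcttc

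The Cdk4 window held 4 E-boxes, between 172 and 6 bases before the start. Of 32851 windows of this length 6.02% held at least 1 E-box and 20 windows, or 0.0609%, held 3 or more. The Cdkn1a element, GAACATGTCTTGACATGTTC, lay 51 to 32 bases before that start; the p53 consensus, searched on both strands with at most 1 mismatch, was found in 25 of the 32851 windows (0.0761%). Another Cdkn1a window, at a further start (chr17:29093519-29093768, plus strand), held no p53 match. The E2F words TTTGGCGC and TTTCCCGC, searched on both strands, were in none of the 9 windows of these genes and in 0.417% and 0.895% of all windows. A match is letters in a window and says nothing of binding in these cells.

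Cdk4 and Cdk6 encode the catalytic partners of the D cyclins. Young controls held 147, 122 and 213 CPM of Cdk4, and young hets 159.6, 400.0 and 349 CPM. It had 242, 283 and 331 CPM in old controls and 139, 498 and 195 CPM in old hets. Old controls were above young controls without overlap, whereas hets of either age spread more widely than their controls and overlapped them. The log2 difference was 0.82 (SE 0.43) for old against young controls, -0.12 (SE 0.42) for old against young hets, 0.91 (SE 0.43) for het against control in the young and -0.03 (SE 0.42) in the old. Old het 2 set the last of these: without it the value was -0.77. With the share of mitochondrial rRNA in the fit as a covariate the young value was 0.03 and that for old against young controls -0.38. That share did not overlap between the groups of either contrast, so the fit can hardly separate it from the group.

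Cdk6 varied less, from 211 to 594 CPM over the 12 libraries. It had 518, 427 and 549 CPM in young controls, 435, 309 and 211 in young hets, 522, 469 and 367 in old controls and 594, 348 and 533 in old hets. Only young het 1 reached the range of the young controls, whose lowest library was at 427 CPM. Het against control was -0.65 (SE 0.33) on the log2 scale in the young and 0.12 (SE 0.32) in the old, and old against young was -0.14 (SE 0.32) in controls and 0.63 (SE 0.33) in hets.

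Cdk6 was the more abundant kinase in 9 libraries and Cdk4 in 3. Cdk4 held 22.1%, 22.3% and 28.0% of their joint counts in young controls, 26.8%, 56.5% and 62.3% in young hets, 31.7%, 37.6% and 47.4% in old controls and 18.96%, 58.9% and 26.8% in old hets. Cdk4 led in young hets 2 and 3 and in old het 2, and in no control. Het and control shares overlapped at both ages, while all old controls were above all young controls, 31.7% being the lowest of the former and 28.0% the highest of the latter. The joint level differed little, with 659 ± 107 CPM (SD, n = 3) in young controls, 621 ± 77.6 in young hets, 738 ± 35.0 in old controls and 769 ± 66.8 in old hets.

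Rb1 encodes the pocket protein that the kinases phosphorylate. It had 16.7, 39.1 and 16.8 CPM in young controls, 11.8, 27.9 and 32.6 in young hets, 15.2, 29.7 and 40.7 in old controls and 15.4, 27.7 and 13.8 in old hets. The 4 groups overlapped throughout the range. Its log2 differences were 0.04 (SE 0.58) and -0.57 (SE 0.58) for het against control in the young and the old, and 0.26 (SE 0.59) and -0.34 (SE 0.58) for old against young in controls and hets. Exons of Lpar6, with 983 counts, and Rcbtb2, with 1419, lie on its opposite strand. Whether their reads were kept apart from its 972 counts is not known.

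**Figure D2:**
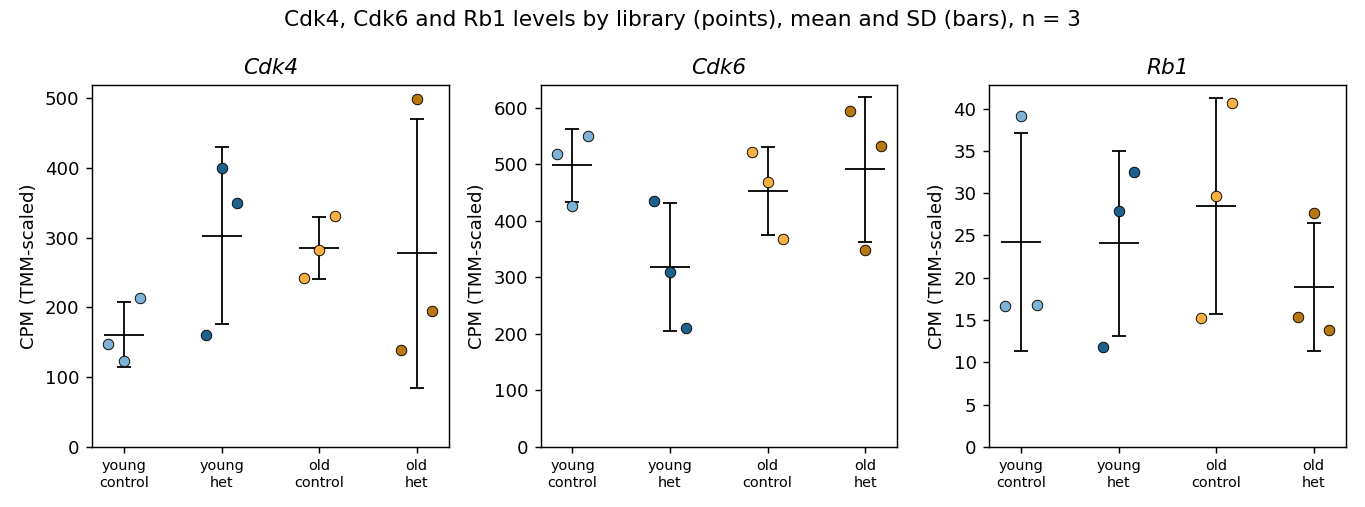
Levels of Cdk4, Cdk6 and Rb1 in CPM for each of the 12 libraries by group, with group mean and SD (n = 3); axes start at 0 and differ between genes. Cdk4 spreads from 139 to 498 CPM within the old hets, and the 4 groups of Rb1 overlap.

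The inhibitors were low, with a summed level of 28.7 ± 1.82 CPM (SD, n = 3) in young controls, 40.6 ± 21.8 in young hets, 79.7 ± 35.9 in old controls and 59.9 ± 15.3 in old hets. Cdkn2c and Cdkn1b held most of it. Cdkn2c had 6.83, 6.80 and 16.05 CPM in young controls, 15.8, 9.31 and 39.9 in young hets, 45.4, 40.1 and 24.8 in old controls and 42.9, 17.6 and 25.0 in old hets. Every old library was above every young control, and young het 3 stood among the old libraries. The log2 difference was 1.86 (SE 0.64) for old against young controls, 0.38 (SE 0.59) for old against young hets, 1.10 (SE 0.63) for het against control in the young and -0.38 (SE 0.59) in the old.

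Cdkn1b had 21.3, 22.1 and 9.94 CPM in young controls, 21.2, 10.96 and 12.4 in young hets, 53.02, 28.8 and 14.6 in old controls and 25.9, 34.5 and 17.7 in old hets. Old libraries were higher on average but overlapped the young ones, and the log2 difference for old against young was 0.88 (SE 0.59) in controls and 0.82 (SE 0.57) in hets. In controls it rested on old control 1 and young control 3: without both it was 0.02. Het against control was -0.25 (SE 0.59) in the young and -0.31 (SE 0.57) in the old.

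Cdkn1a, a p53 target gene and the owner of the response element shown, was close to the limit of detection. It had 2.28, 0 and 0.764 CPM in young controls and 0.336, 0.450 and 8.52 in young hets. In old controls it had 15.6, 3.30 and 8.40 CPM and in old hets 2.43, 9.22 and 1.31. The listed values of old controls were above those of young controls, whose 3 libraries held 4 counts together. The 0 in young control 2 allows up to 5.10 CPM (3 counts), more than the 3.30 CPM of old control 2, so a separation was not detectable at this depth. Young het 3 had the highest level of the young libraries, and young control 1 also lay above the lowest old library. The log2 difference was 2.96 (SE 1.52) for old against young controls and 0.49 (SE 1.31) for old against young hets. It was 1.43 (SE 1.49) for het against control in the young, where it turned to -1.42 without young het 3, and -1.04 (SE 1.31) in the old.

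Cdkn1c was detected in 4 libraries: 18 counts in young het 3, 52 in old control 1, 1 in old control 3 and 4 in old het 1. The young controls had 0 counts, and no fold was computed for a gene at this depth. Young het 3 thus held the highest level among the young libraries of Cdkn1a, Cdkn1c and Cdkn2c, and old control 1 the highest of all libraries for Cdkn1a, Cdkn1b, Cdkn1c and Cdkn2c.

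**Figure D3:**
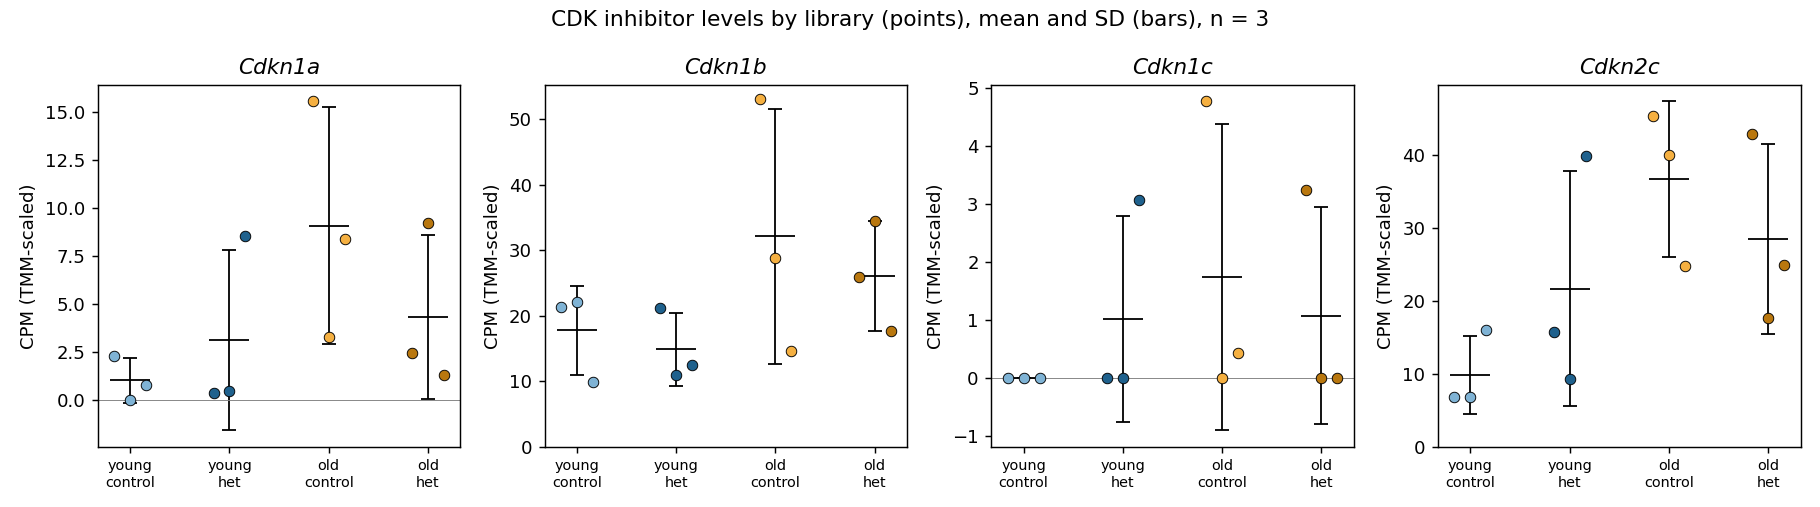
Levels of Cdkn1a, Cdkn1b, Cdkn1c and Cdkn2c in CPM for each of the 12 libraries by group, with group mean and SD (n = 3); axes differ between genes. Old control 1 is the highest library for all 4 genes, and young het 3 is the highest young library for all but Cdkn1b.

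Set beside the whole table, no member passed an adjusted p of 0.05 (edgeR's quasi-likelihood test, Benjamini-Hochberg) between het and control. In the young 0 of 9 tested members passed, where 0.424% of the 10604 genes did, and 1 member had an unadjusted p below 0.05; DESeq2 and limma-voom also called 0. In the old 0 of 9 passed, where 0% of genes did; no member had an unadjusted p below 0.05, and DESeq2 and limma-voom called 0. No member had het and control groups that did not overlap at either age, against 16.8% of genes in the young and 11.1% in the old. The difference between the het effects of the ages was called for 0 of 9 members (DESeq2 and limma-voom also 0, and 0 with an unadjusted p below 0.05) and for 0.0849% of genes. It ran from -2.46 (SE 1.99) for Cdkn1a to 0.76 (SE 0.46) for Cdk6 on the log2 scale, with Ccnd1 at -1.56 (SE 0.94).

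The same values were listed for the ages. Between old and young controls Ccnd1 was among the 6.98% of genes called, DESeq2 called Ccnd2 as well, and limma-voom called Ccnd1. Ccnd1, Ccnd2, Cdk4, Cdkn1a and Cdkn2c, 5 of 9 tested members, had listed values in old controls above those in young controls, against 19% of all genes; for Cdkn1a the limit on the 0 of young control 2 takes the separation away. Between old and young hets 0 of 9 members were called (2 with an unadjusted p below 0.05, DESeq2 and limma-voom 0) and 0.00943% of genes, and Ccnd1 and Ccnd2 were higher without overlap, against 7.08% of genes. Over both genotypes 1.21% of genes, 128 in all, had every old library above every young library, and Ccnd1 and Ccnd2 were among them. The members' median log2 difference was 0.88 for old against young controls and 0.60 for hets, beside 0.22 and 0.01 over all genes; for het against control it was 0.04 in the young and -0.31 in the old, beside 0.08 and -0.05. These genes were chosen with such values known, and nothing is read from the counts.

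**Figure D4:**
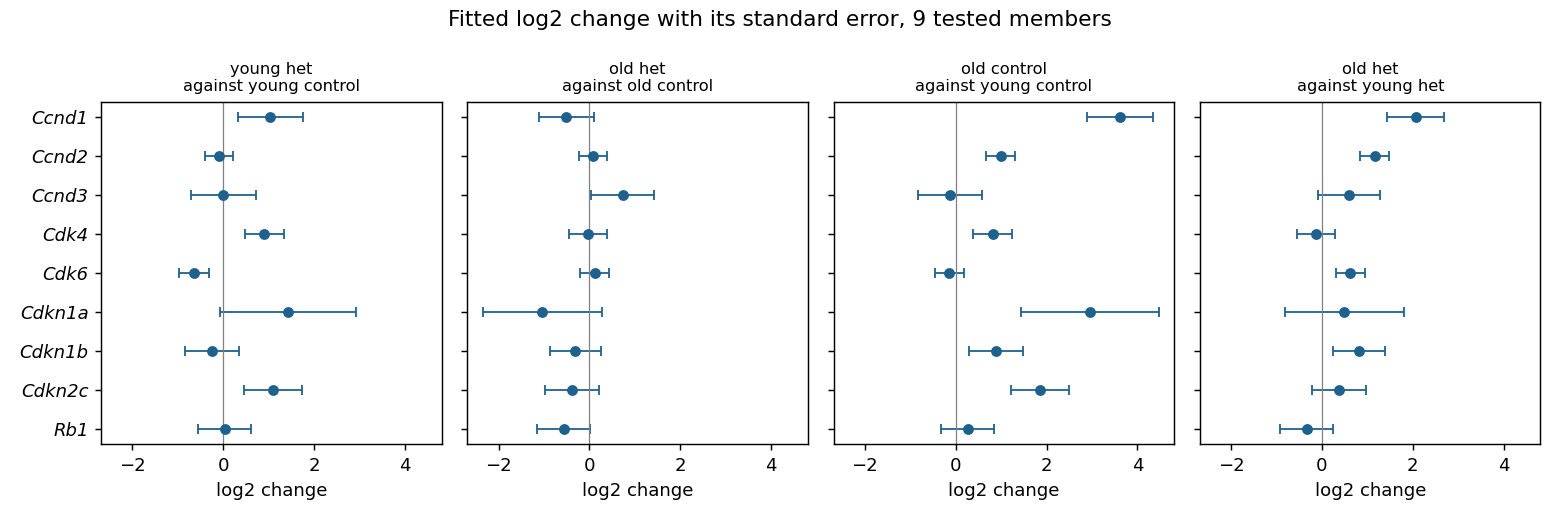
Log2 differences with SE for the 9 tested members in the 4 group comparisons of edgeR's quasi-likelihood fit. Values of old against young controls run from -0.14 for Cdk6 to 3.62 for Ccnd1, and those of het against control lie within 2 SE of 0 except that of Cdk4 in the young (0.91, SE 0.43).

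Other properties of the libraries differed between old and young, some of them in 1 genotype only. In bulk RNA fewer cells of a type and less RNA per cell cannot be told apart. The 10 stem and multipotent progenitor markers summed to 490 to 601 CPM in young controls, 648 to 744 in young hets, 691 to 2130 in old controls and 555 to 879 in old hets; of 8 tested, 2 were called higher in old than in young controls, and Ly6a was at 0 in all young libraries. In old controls 1 to 3 that list summed to 2130, 691 and 711 CPM beside 119, 55.2 and 112 CPM of Ccnd1, and in old hets 1 to 3 to 734, 555 and 879 CPM beside 30.7, 68.1 and 100.5 CPM. The 9 B lymphoid markers summed to 180 to 254 CPM in young controls, 92.7 to 131 in young hets, 25.0 to 47.6 in old controls and 29.3 to 61.1 in old hets, with 3 of 5 tested called lower in old controls and Cd79a at 0 in all old libraries and in all young controls. The 9 megakaryocyte markers summed to 146 to 216, 129 to 321, 263 to 641 and 165 to 315 CPM in the same order of groups, with 0 of 8 called between controls by edgeR. The 8 neutrophil precursor markers summed to 4428 to 10562, 10602 to 13577, 6023 to 14315 and 8377 to 14871 CPM in that order, and 3 of 8 were called higher in old than in young controls. The 12 erythroid markers summed to 2218 to 2341, 1498 to 2651, 849.8 to 2608 and 720.4 to 1427 CPM; old hets were below young hets without overlap, with a median log2 difference of -1.14 and 0 of 12 called by edgeR. The 7 T and NK markers summed to 25.5 to 65.0, 44.0 to 131, 84.0 to 150 and 42.9 to 151 CPM in that order. Old controls lay above young controls without overlap, with 0 of 3 tested called. The 7 monocyte and dendritic markers summed to 1349 to 1712, 620 to 1292, 1009 to 1497 and 1187 to 1968 CPM. Between controls 1 of 7 was called higher and 1 lower in the old. The 7 stromal and endothelial markers summed to 0 to 3.40, 1.65 to 24.2, 5.19 to 46.9 and 4.04 to 11.8 CPM in that order. Here too old controls lay above young controls without overlap, with 0 of 1 tested called. Mitochondrial rRNA took 4.35% to 8.22% of counts in young controls, 2.999% to 3.51% in young hets, 1.70% to 2.38% in old controls and 1.40% to 4.78% in old hets. Young controls thus overlapped neither young hets nor old controls, so a fit with this covariate can hardly separate it from these groups. The part of these properties in the age differences of Ccnd1 and Ccnd2 was not tested, except in that fit. It called 0 genes between controls, and its Ccnd1 difference was 4.25 (SE 1.15), no longer called.

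Around these members 105 further genes of the pathway were examined on 7 lists, and 96 were tested. In the young, 3 of 96 passed the adjusted threshold between het and control, where 0.424% of all genes did. Slbp, whose product binds and stabilises the 3' end of histone mRNAs, fell from 501 ± 149 CPM (SD, n = 3) in controls to 60.6 ± 18.8 in hets, a log2 change of -3.05 (SE 0.46, adjusted p = 0.00538 by edgeR's quasi-likelihood test). Mnat1, the assembly factor of the CDK-activating kinase, fell from 567 ± 278 to 159.5 ± 65.2 CPM, a change of -1.83 (SE 0.41, adjusted p = 0.0493 by edgeR's test). Gfi1, a transcriptional repressor of granulocyte development, rose from 14.8 ± 10.6 to 115 ± 26.3 CPM, a change of 2.85 (SE 0.62, adjusted p = 0.0477 by edgeR's test). The groups did not overlap for any of the 3. The neutrophil precursor list, which holds Gfi1, was higher in young hets than young controls without overlap (10602 to 13577 against 4428 to 10562 CPM). Its median log2 difference was 1.02, and the 1 of 8 called was Gfi1 itself. The part of the list in the Gfi1 change was not tested. Gfi1 lost its call when any of the 6 young libraries was left out, Mnat1 without any but young control 3, and Slbp without young control 2, young het 2 or young het 3. All 3 calls were lost with mitochondrial rRNA as a covariate, and those of Mnat1 and Gfi1 also in limma-voom and in a fit of the compared groups alone. The covariate did not overlap between young hets and young controls, and its fit called 1 gene in all. Its loss of calls therefore says little of these 3 genes.

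In the old, 0 of 96 genes passed between het and control in edgeR's test, DESeq2 and limma-voom, and 6 had an unadjusted p below 0.05 in edgeR. Slbp was at 27.4 ± 6.57 CPM in old controls and 85.1 ± 49.8 in old hets, and the difference between its het effects, 4.68 (SE 0.63), passed (adjusted p = 0.00377 by edgeR's test, the only 1 of 96); this call too was lost with mitochondrial rRNA as a covariate. Between old and young controls 6 of 96 passed, a share no larger than the 6.98% of all genes. Gfi1 was higher in old controls by 2.83 (SE 0.62) on the log2 scale (adjusted p = 0.00893 by edgeR's test). Slbp was lower by a log2 change of -4.19, Bax, the pro-apoptotic p53 target, by -2.69, Dut, the dUTPase, by -2.23, Mnat1 by -2.18 and Fos, an AP-1 subunit, by -1.73; their adjusted p in edgeR's test ran from 0.000121 to 0.0462. All 6 calls were lost with mitochondrial rRNA as a covariate, in a fit that called 0 genes between controls and gave a Gfi1 difference of 1.08. Of the 6, limma-voom called 4 and lost Gfi1 and Fos. The young genotype contrast and this age contrast share the young controls, so the values of Slbp, Mnat1 and Gfi1 in them are not independent. Fos was the 1 gene called between old and young hets, with 3.73 ± 1.21 CPM (SD, n = 3) against 57.9 ± 19.3, a change of -3.90 (SE 0.59, adjusted p = 0.0176 by edgeR's test). Its call was lost in limma-voom and without young het 2 or 3 or old het 2 or 3. Its call between controls was lost without young control 3 or any old control, and in a fit of the compared groups alone.

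Among 32 S phase genes that E2F factors control, 1 of 32 passed between young het and control (0.424% of all genes) and 2 of 32 (Slbp and Dut) between old and young controls (6.98% of all genes), with medians of -0.04 and -0.14 against 0.08 and 0.22 over all genes. Of the 12 pocket proteins and E2F factors, 0 passed in any comparison by edgeR or DESeq2, nor by limma-voom. E2f4, which encodes a repressive E2F factor, was at 7.23 CPM in old hets and 21.2 in old controls without overlap (adjusted p = 0.999 by edgeR's test). The 12 genes of D cyclin and p27 turnover had 0 calls in edgeR, while DESeq2 called Fbxo4 in the young and Cks1b between controls. Fbxo4, which encodes an F-box protein of D cyclin turnover, was at 6.62 CPM in young hets and 27.3 in young controls (adjusted p = 0.181 by edgeR's test). Of 14 tested p53 targets 1 passed, Bax, in old against young controls. The ubiquitin ligase gene Mdm2 had 138 CPM in young hets and 60.6 in young controls, without overlap (adjusted p = 0.176 by edgeR's test). The other CDK inhibitors, Cdkn2a, Cdkn2b and Cdkn2d, had too few counts to test.

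For each D cyclin the 3 genes with the most similar course over the 12 libraries were found by the root mean square difference of centred log2 CPM, among 4679 genes. For Ccnd1 they were Fam160b1 (0.90), Ifi203 (0.98) and Tbc1d15 (1.01), where Ccnd1 itself varied by 2.05 on this measure, so that none followed it closely. For Ccnd2 they were Zdhhc21 (0.22), Arid1b (0.26) and Strn3 (0.26), against 0.61 for its own variation. Strn3, a striatin, had 151 ± 22.2 CPM (SD, n = 3) in young controls, 187 ± 75.9 in young hets, 284 ± 16.2 in old controls and 329 ± 28.6 in old hets. Zdhhc21, a palmitoyltransferase, had 98.7 ± 6.13, 105 ± 47.5, 156 ± 21.7 and 172 ± 18.8 CPM in the same order. For Ccnd3 they were Entpd5 (0.41), Dtx4 (0.42) and Lrrc59 (0.43), against 0.68.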

How the data were processed

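RNA was measured in 12 libraries of sorted myeloid progenitors, prepared with a Lexogen 3' mRNA-seq kit per the labels' protocols. The deposited values are read counts per gene symbol, not normalized, in a single table. STAR 2.4, HTSeq 0.6.1, DESeq2 and the build mm9 are named, per the submitters' processing notes, without role or order. No strand setting, annotation or use of molecular identifiers is stated there.

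Samples were grouped by the age and genotype labels, 3 a group; replicate numbers are names only. Counts were fitted with edgeR 4.0.16 (quasi-likelihood F test, TMM scaling) in R 4.3.3, all 4 groups in 1 fit, after filterByExpr (minimum count 10, minimum total 15), and p-values were adjusted by Benjamini-Hochberg at 0.05 over all 10604 genes. Each SE was taken as the size of the log2 change over the root of its F statistic. CPM use TMM-scaled totals of tested genes. Total counts of 645460 to 9645502 make 3 counts worth 5.10 to 0.275 CPM. Wilson intervals (95%) came from scipy 1.17.1. Principal components used log2 CPM with a prior count of 2. Promoter windows and motif searches used the RefSeq table of GRCm38.p6. Exons on the opposite strand of members were taken from a GENCODE mouse annotation. It need not match the annotation used for the counting, which is not stated. Steps were tested on simulated data.

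The members, the lists and the tests were chosen with earlier results of these data known. Named were all members; of each pathway list, genes past the threshold in any comparison and up to 4 with the smallest p between het and control, of which some are printed; and the 3 genes nearest each D cyclin with a mean log2 CPM of 5 or more. Markers were used as whole lists, naming some of those at 0; 1 marker is not reported by itself. Alternatives were other scaling and filters, DESeq2 1.42.0, limma-voom (limma 3.58.1), a mitochondrial rRNA covariate, the compared groups alone, and leaving out libraries.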

Additional observations from a re-analysis of the deposited data

Results flagged for a closer look

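Slbp, which encodes the histone stem-loop binding protein, differed in its het effect between the ages: the effect in the old minus that in the young was 4.68 on the log2 scale (SE 0.63, adjusted p = 0.00377 by edgeR's quasi-likelihood test). It had 410.0, 673 and 420 CPM in the young controls and 78.3, 40.8 and 62.6 CPM in young hets, but 19.96, 32.3 and 30.1 CPM in old controls and 115, 27.7 and 113 CPM in old hets. The young hets were below the young controls without overlap, while old het 2 lay among the old controls. The call held when any single library was left out and was lost with mitochondrial rRNA as a covariate (adjusted p = 0.772, the highest over all alternatives; the lowest was 2.68e-13).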

How the results depend on the processing

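Of 712 alternative log2 changes of members, 20 of those not called moved by more than the spread between replicates. Only Ccnd1 between controls had a call to lose. Of its 15 alternatives, 1 lost it (the mitochondrial rRNA covariate) and 0 changed sign. Signs of changes not called were less stable. Het against control in the young changed sign in 8 of 15 alternatives for Ccnd3 and for Rb1. For Cdk4 in the old 4 of 15 did, and for the Cdkn1b difference of effects 9 of 20. The Ccnd1 difference between controls ran from 2.76 to 4.75. Leaving out 1 library moved the mean Ccnd1 share between 1.18% and 2.58% in young controls and 3.26% and 3.55% in young hets. In old controls it moved between 7.44% and 10.8%, and in old hets between 4.66% and 7.98%. Leaving out 1 of 3 libraries cannot move a mean by the replicate SD, so staying within that SD was not a check. No paired analysis was possible because the labels give the groups no shared replicate numbers. Depth limits Cdkn1a and Cdkn1c most.

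Counts of all genes and, in parentheses, of pathway genes called moved as follows; the causes were not tested. As reported they were 45 (3) for young het against control, 0 (0) for old het against control, 740 (6) for old against young controls, 1 (1) for old against young hets and 9 (1) for the difference of effects. Leaving out 1 library at a time gave 1 to 157 (0 to 3), 0 to 1 (0 to 0), 315 to 777 (5 to 9), 0 to 5 (0 to 1) and 2 to 294 (1 to 5). Without a filter on low counts they were 258 for young het against control, 11 (1) for old het against control, 22 for old against young hets and 216 (4) for the difference. DESeq2 called 355 (5), 1295 (15) for controls by age, 15 for hets by age and 296 (5) for the difference, and limma-voom 23 (1) in the young, 0 pathway genes for hets by age and 2 for the difference. With the mitochondrial rRNA covariate they were 1 (0) in the young, 0 (0) for controls by age, 2 for hets by age and 0 (0) for the difference. Because the covariate set young controls apart from young hets and old controls, calls lost in that fit say little of single genes. Without old control 1 and young control 3 together they were 241, 463, 8 and 59 (2), and with only the compared groups 13 (1) in the young and 2 for hets by age.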
